A study of Mus musculus with 6 samples.

Results

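The 10 genes described here are known to respond to glucocorticoids and to fasting: Fkbp5, Tsc22d3, Zbtb16, Klf9, Sgk1, Errfi1, Pdk4, Angptl4, Mt1 and Mt2. They were followed across the cell types of 6 mouse single-cell libraries. They are 10 of the 56884 genes in the count tables and were found by gene symbol. The group was chosen on values of these libraries, the ratios of iPCKO to control given here among them, so its counts are descriptions without a test. Each library pools cells of 2 mice of 1 genotype. 4 libraries come from P21 lung, depleted of CD45+ and Ter119+ cells. In 1 pair of them Bdnf was floxed (Bdnf lox/lox control and Bdnf iPCKO) and in the other pair Hgf (Hgf lox/lox control and Hgf iPCKO). The other two libraries come from P12 cerebral cortex with floxed Nodal, from control (Nodal lox/lox) and from iPCKO mice. In iPCKO mice the floxed gene was deleted by Pdgfrb(BAC)-CreERT2, a transgene active in mural cells and, at low levels of the receptor, to a limited degree in fibroblasts. Cre was induced with 50 µg tamoxifen on each day from P1 to P3, a dose listed for all libraries, controls included. The controls are named by their floxed alleles only and were taken to lack CreERT2. With 1 library per group no comparison has a replicate, so all intervals below are 95% intervals for counting error only, and a difference between libraries cannot be told apart from a difference between the pools of mice, their handling or the time of day at which they were taken.

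Glucocorticoids pass into cells and bind the glucocorticoid receptor, which then enters the nucleus and binds response elements near its target genes. Hormone levels follow the daily cycle and climb in stress and fasting, when many tissues also turn from glucose to fatty acids as fuel. Fkbp5 encodes a co-chaperone of HSP90 that lowers the affinity of the receptor for its hormone and is among the most widely induced targets. Tsc22d3 encodes the anti-inflammatory protein GILZ, and Zbtb16 and Klf9 encode zinc-finger transcription factors. Sgk1 encodes a kinase that raises sodium uptake, and Errfi1 encodes an inhibitor of EGF receptor signalling. Pdk4 encodes a kinase that shuts down pyruvate dehydrogenase and so spares glucose, and Angptl4 encodes a secreted inhibitor of lipoprotein lipase. Mt1 and Mt2 encode metallothioneins, small metal-binding proteins induced by zinc through the factor MTF1 and by glucocorticoids.

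On GRCm39, with the Gencode annotation, Fkbp5 lies at chr17:28618058-28737521, Tsc22d3 at chrX:139440091-139501408 and Zbtb16 at chr9:48563141-48748664, all on the minus strand. Klf9 lies at chr19:23118187-23148497, Sgk1 at chr10:21758083-21875802 and Errfi1 at chr4:150938376-150955402 on the plus strand. Pdk4 lies at chr6:5483097-5496339 and Angptl4 at chr17:33992724-34000804 on the minus strand. The metallothionein genes Mt2, at chr8:94898819-94900207, and Mt1, at chr8:94905710-94906955, are neighbours on the plus strand. UMIs in entries that hold shares of multi-mapped reads made up at most 0.785% of a gene's UMIs, reached by Fkbp5, and at most 0.176% for Mt1 and Mt2.

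Promoter windows of RefSeq (GRCm38.p6, from 250 bases before to 50 after a transcript start) were available for 8 of the 10 genes, in 16 windows, and not for Angptl4 and Zbtb16. They were searched on both strands for the metal response element cores TGCACNC and TGCGCNC, for the full glucocorticoid response element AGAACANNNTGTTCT and for its left arm AGAACA, which the full element contains. The 250 bases before the start are shown for the 3 windows whose letters bear on the classes of inducer named above, with matches to the metal response element cores (Mt2, Mt1) or to the full glucocorticoid element (Sgk1) in capitals.
Mt2, chr8:94172368-94172617, plus strand: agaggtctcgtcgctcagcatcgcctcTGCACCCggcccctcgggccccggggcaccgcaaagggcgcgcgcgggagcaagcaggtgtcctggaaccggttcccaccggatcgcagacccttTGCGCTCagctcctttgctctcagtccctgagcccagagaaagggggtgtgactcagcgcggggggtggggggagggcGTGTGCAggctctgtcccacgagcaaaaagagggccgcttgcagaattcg
Mt1, chr8:94178839-94179088, plus strand: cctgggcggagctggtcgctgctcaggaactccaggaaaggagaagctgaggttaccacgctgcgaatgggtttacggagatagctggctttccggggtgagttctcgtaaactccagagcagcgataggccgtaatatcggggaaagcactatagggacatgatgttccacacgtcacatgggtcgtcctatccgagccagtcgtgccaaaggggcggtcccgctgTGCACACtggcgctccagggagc
Sgk1, chr10:21993640-21993889, plus strand: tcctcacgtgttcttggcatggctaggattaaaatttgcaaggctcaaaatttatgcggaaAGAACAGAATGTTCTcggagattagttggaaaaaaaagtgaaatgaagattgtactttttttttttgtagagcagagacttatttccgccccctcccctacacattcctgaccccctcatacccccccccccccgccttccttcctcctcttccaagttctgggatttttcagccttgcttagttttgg
The window of Mt2 held 4 metal cores, which begin 223, 128 and 50 bases before and 4 bases after the start, and that of Mt1 held 3, which begin 23 bases before and 2 and 20 bases after it. At least 3 such cores were found in 1.97% of all 32851 windows, and at least 1 in 25.7%. The full glucocorticoid element was found in 1 of the 6 windows of Sgk1, 189 bases before the start, and in 3 of all windows (0.00913%). Its left arm alone was found in 19.0% of all windows. No window of Fkbp5, Tsc22d3, Klf9, Pdk4 or Errfi1 held either metal core or the full element, which says only that these letters are not in these windows.

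Cells were barcodes with at least 1500 UMIs (700 in the Hgf libraries), which left 14622 to 24311 per lung library, with median depths of 2841 to 7118 UMIs, and 3237 and 5008 per cortex library, with 7706 and 7792 UMIs. Each cell was assigned to a type by the markers it expressed, and 80.9 to 93.8% of the barcodes of a library were assigned. The marker lists hold none of the 10 genes, and the types are called AT2-like and so on. AT1 and AT2 are the alveolar type 1 and 2 epithelial cells, and gCap and aCap the general and aerocyte capillary endothelial cells. Counted over the marker lists used, markers of another type never outnumbered those of the type itself among the 10 leading genes of a pair and cell type, and none of either stood there for neuronal-like cells and for immune-like cells of the Hgf lungs. In the latter the leading genes belonged to plasma cells, basophils and neutrophil precursors (Ighv3-6, Prss34, Mcpt8, Mpo, Elane), a mixture that makes its ratios hard to read. Club-like cells had 1 club marker among their 10 leading genes in the Bdnf lungs and 3 in the Hgf lungs, beside Tff2, Muc5b, Bpifb1 and others that are known from goblet and other mucosal secretory cells. Libraries shared 18 to 314 of their gated barcode combinations. The targeted genes were sparse in pericyte-like cells: control and iPCKO libraries held 12 and 3 UMIs of Bdnf, 24 and 10 of Hgf, and 190 and 0 of Nodal. UMIs were summed over the cells of a type and library and given as CPM, the count scaled to a sum of 1e6 UMIs, and these levels were compared within a gene and not between genes. A ratio was taken where both libraries had at least 50 cells of the type and the gene had at least 20 UMIs over both, and was called higher or lower where it reached 2-fold (log2 ratio of 1 or -1).

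In the control lungs the 10 genes were spread over different compartments. 5 of them were highest in the same cell type in both control libraries. Tsc22d3 was highest in matrix fibroblast-like cells, at 675 CPM (641 to 709.8) in the Bdnf control and 451 (395 to 511) in the Hgf control. Klf9 was highest in myofibroblast-like cells, at 958 CPM (929.6 to 988) and 1404 (1269 to 1549). Pdk4 peaked in smooth muscle-like cells, at 67.7 CPM (47.9 to 93.0) and 64.0 (33.1 to 112). In both libraries this peak overlapped in its interval with the next cell type, so the order at the top is not resolved. Angptl4 was highest in matrix fibroblast-like cells, at 169 CPM (152 to 187) and 86.3 (63.2 to 115), and the second level, in pericyte-like cells at 66.8 and 76.0, overlapped with the first in the Hgf control. Mt2 was highest in ciliated-like cells, at 2093 CPM (2049 to 2139) and 1217 (1176 to 1259), well apart from the next type in each library.

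For the other 5 genes the highest type was not the same in both control lungs, though its lead was not always resolved. Sgk1 was an endothelial transcript in both, at 464 CPM (445 to 485) in venous-like cells of the Bdnf control, and at 446 (404 to 491) in arterial-like and 435 (405 to 467) in venous-like cells of the Hgf control, which do not differ beyond counting error. Mt1 was highest in ciliated-like cells of the Bdnf control, at 1562 CPM (1524 to 1601). In the Hgf control it stood at 1854 (1699 to 2020.0) in myofibroblast-like and 1806 (1755 to 1857) in ciliated-like cells, with overlapping intervals. Errfi1 was highest in myofibroblast-like cells of the Bdnf control, at 387 CPM (369 to 406), and in AT2-like cells of the Hgf control, at 429 (421 to 437). Fkbp5 was highest in adventitial fibroblast-like cells of the Bdnf control, at 159 CPM (150.2 to 168), and in myofibroblast-like cells of the Hgf control, at 56.7 (32.4 to 92.1), which overlaps with adventitial fibroblast-like cells there (35.6). Zbtb16 was highest in myofibroblast-like cells of the Bdnf control, at 594 CPM (571 to 617), and in gCap-like cells of the Hgf control, at 135 (126 to 146). At their peaks these last 2 genes stood lower in the Hgf control than in the Bdnf control.

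**Figure D1:**
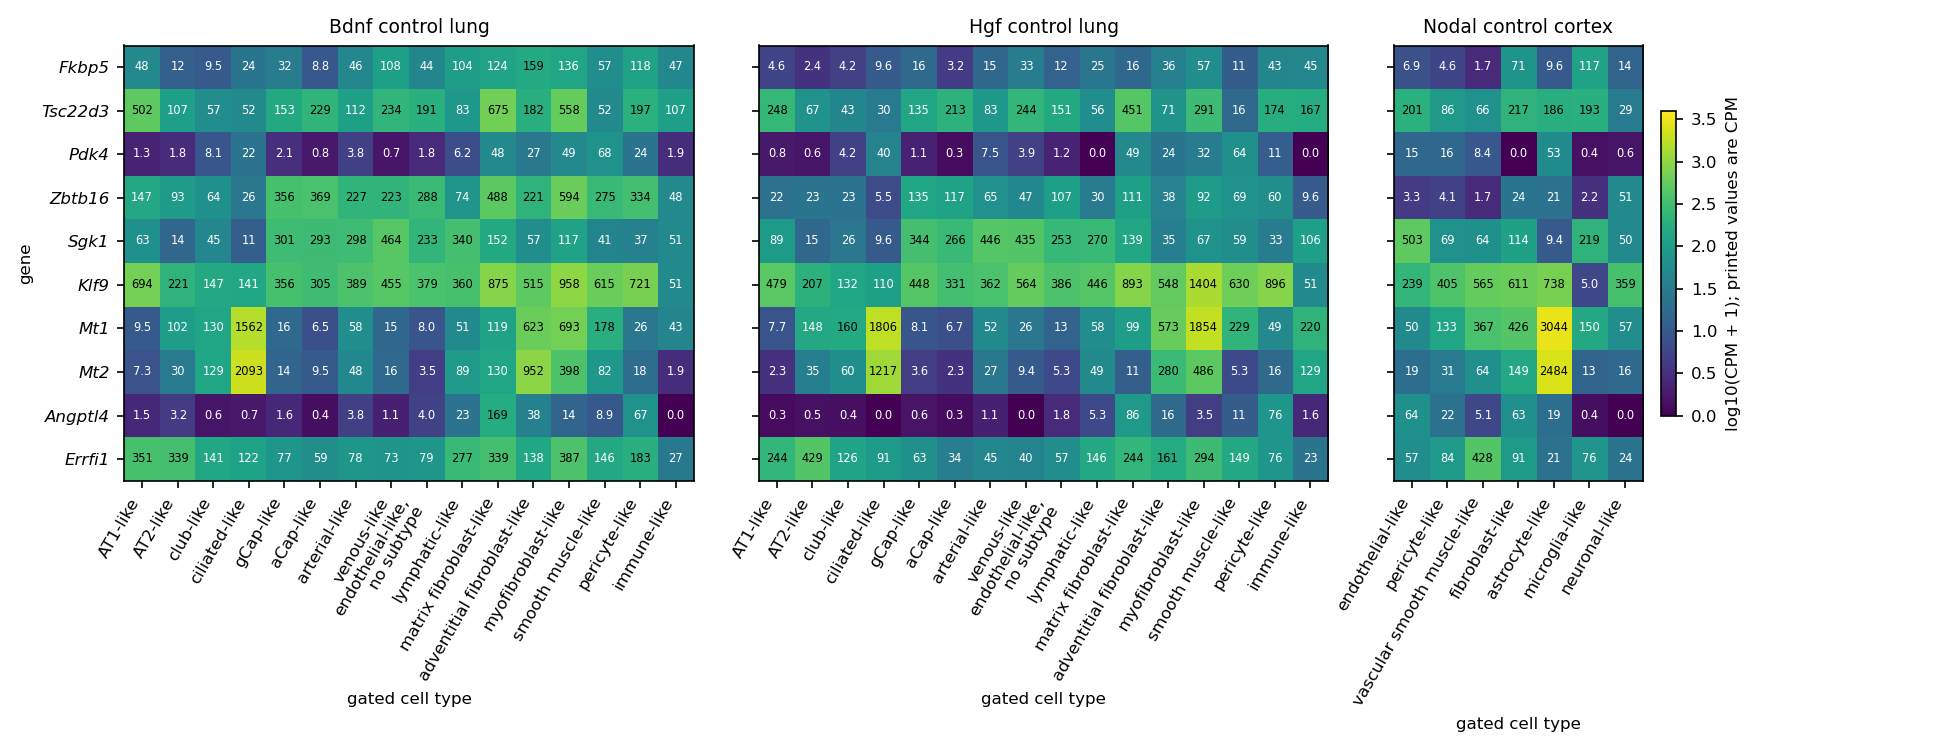
Level of each of the 10 genes (rows) in each gated cell type (columns) of the 3 control libraries; colour is log10(CPM + 1) and the printed value is the CPM. Klf9 and Tsc22d3 were spread over all lung types but highest in fibroblasts, and Sgk1 was highest in endothelial types. Mt2 stood out in ciliated-like cells of both lungs and Mt1 in those of the Bdnf control. In the Hgf control Mt1 was as high in myofibroblast-like cells (1854) as in ciliated-like cells (1806). Both metallothioneins stood out in astrocyte-like cells of the cortex.

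In the control cortex the metallothioneins were astrocyte transcripts, with Mt1 at 3044 CPM (3005 to 3084) and Mt2 at 2484 (2449 to 2520.3) in astrocyte-like cells against 426 and 149 in fibroblast-like cells, the next type for both. Klf9, at 738 CPM (719 to 758), and Pdk4, at 53.3 (48.3 to 58.8), were also highest in astrocyte-like cells. Sgk1 was highest in endothelial-like cells, at 503 CPM (489 to 517), as in the lung. Fkbp5 was highest in microglia-like cells, at 117 CPM (108 to 126), and Klf9 was lowest there, at 4.98 on 28 UMIs. Errfi1 was highest in vascular smooth muscle-like cells, at 428 CPM (377 to 484), and Zbtb16 in neuronal-like cells, at 51.0 (40.9 to 62.9). Angptl4 in endothelial-like cells (64.0 CPM) and Tsc22d3 in fibroblast-like cells (217) overlapped in their intervals with the next type.

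The widest differences lay between the Hgf lungs. Of 150 ratios of the 10 genes over 16 cell types, 100 were at least 2-fold higher in the Hgf iPCKO library and 2 were at least 2-fold lower, with a median log2 ratio of 1.66. Over all genes 6.87% of 158733 ratios were higher and 7.95% were lower by that measure, with a median of -0.03. The genes were chosen with this contrast in view, so these shares describe them and support nothing further. In 15 of the 16 cell types the median of the 10 genes lay above that of all genes. The exception was the mixed immune-like type, where the median was -0.15. In the other types the median ran up to 3.46, in smooth muscle-like cells.

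Fkbp5 differed in every type compared. In AT2-like cells it stood at 2.42 CPM in the Hgf control and 61.1 in the Hgf iPCKO library, in AT1-like cells at 4.59 and 162, and in aCap-like cells at 3.16 and 124, a log2 ratio of 5.30 (4.33 to 6.30). In gCap-like cells it stood at 16.1 and 191, and in pericyte-like cells, among the mural cells that CreERT2 targets, at 43.4 and 286, a log2 ratio of 2.72 (1.69 to 3.97). All 15 ratios of Fkbp5 were past 2-fold, with a median of 3.20, from 1.21 in immune-like to 5.30 in aCap-like cells. The pericyte-like cells, which stood at the top of the iPCKO library together with venous-like cells, thus differed less than AT1-like, AT2-like and aCap-like cells, which were among the lowest of the control.

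Among the transcription regulators, Zbtb16 was higher past 2-fold in 14 of 16 types, with a median log2 ratio of 1.86. Against the Bdnf control Zbtb16 had a median of -0.36 and was higher past 2-fold in 0 of 16 types. It stood at 21.7 CPM in the Hgf control and 154 in the Hgf iPCKO library in AT1-like cells, the type with the largest ratio (2.82, 2.49 to 3.17). Tsc22d3 was higher past 2-fold in 8 of 16 types, with a median of 1.04. In adventitial fibroblast-like cells it stood at 71.2 and 523 CPM (2.88, 2.58 to 3.18), while in AT2-like cells it stood at 67.1 and 62.0 (-0.11, -0.23 to 0.00), so that AT2-like cells, like the mixed immune-like cells, lay below 0 for this gene. Klf9 was higher past 2-fold in 5 of 16 types but above 0 in 15, with a median of 0.82. Its levels in matrix fibroblast-like cells were 893 and 2315 CPM (1.38, 1.19 to 1.56).

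Of the signalling genes, Sgk1 was higher past 2-fold in 7 of 16 types and lower in 1, the immune-like cells. It stood at 344 CPM in the Hgf control and 404 in the Hgf iPCKO library in gCap-like cells (0.23, 0.14 to 0.32), at 446 and 863 in arterial-like cells (0.95, 0.78 to 1.12) and at 435 and 652 in venous-like cells (0.58, 0.46 to 0.70), the types with the highest control levels. In club-like cells it stood at 26.1 and 28.1 CPM (0.11, -0.38 to 0.60). The ratio was larger in myofibroblast-like cells, at 67.4 and 320.4 CPM, in matrix fibroblast-like cells, at 139 and 499 (1.84, 1.40 to 2.30), and in AT1-like cells, at 89.2 and 273 (1.61, 1.43 to 1.79). Errfi1 had a median of 0.74, with 2 of 16 types past 2-fold. Lymphatic-like cells were the farthest, at 146 and 687 CPM (2.23, 1.88 to 2.60). In AT2-like cells, where it was highest, Errfi1 stood at 429 and 849 CPM (0.98, 0.95 to 1.02), and in AT1-like cells at 244 and 248.

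The fuel genes had at most 16 UMIs each in AT1-like, AT2-like, aCap-like and gCap-like cells of the Hgf control. Pdk4 stood at 0.574 CPM there in AT2-like cells and at 32.5 in the Hgf iPCKO library, a log2 ratio of 5.82 (5.11 to 6.64); free RNA could make up to 0.420 CPM of the control level. In smooth muscle-like cells, its highest control type but not resolved from the next, it stood at 64.0 and 748 CPM (3.55, 2.67 to 4.55). 12 of 13 ratios of Pdk4 were past 2-fold, with a median of 2.48. Ciliated-like cells were the exception, at 40.3 and 57.3 CPM. Where the control held few UMIs, a type met the UMI minimum only if the iPCKO library held many, so this count favours large ratios. At a minimum of 50 UMIs 8 types of Pdk4 remained, with a median of 2.46. Angptl4 was higher past 2-fold in 10 of 10 types compared, with a median of 3.04. The same condition applies to the count of Angptl4, of which 5 types remained at a minimum of 50 UMIs, with a median of 3.07. In pericyte-like cells it stood at 76.0 and 591 CPM (2.96, 2.18 to 3.85) and in matrix fibroblast-like cells at 86.3 and 384 (2.15, 1.61 to 2.71). In venous-like cells the Hgf control had no UMI of Angptl4. With that count set to 3 UMIs the ratio was 4.88-fold, a value that depends on this setting.

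Mt1 and Mt2 were higher past 2-fold in 13 and 14 of 16 types, with medians of 2.27 and 2.81. In ciliated-like cells Mt1 stood at 1806 CPM in the Hgf control and 5037 in the Hgf iPCKO library (1.48, 1.44 to 1.52). In adventitial fibroblast-like cells Mt2 stood at 279.6 and 3811 CPM (3.77, 3.63 to 3.91), which made this type the highest of the iPCKO library. Myofibroblast-like cells went against most other types, with Mt1 at 1854 and 1264 CPM (-0.55, -0.70 to -0.40) and Mt2 at 486 and 473. This depends on the control used. Against the Bdnf control both genes lay above 0 in all 16 types, and myofibroblast-like cells had the lowest ratios, 0.87 for Mt1 and 0.25 for Mt2. The largest ratio of Mt2, 8.89 (6.40 to 14.20) in smooth muscle-like cells, rests on 1 UMI in the control against 301. Mt2 was lower in the mixed immune-like cells, at 129 and 22.0 CPM.

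**Figure D2:**
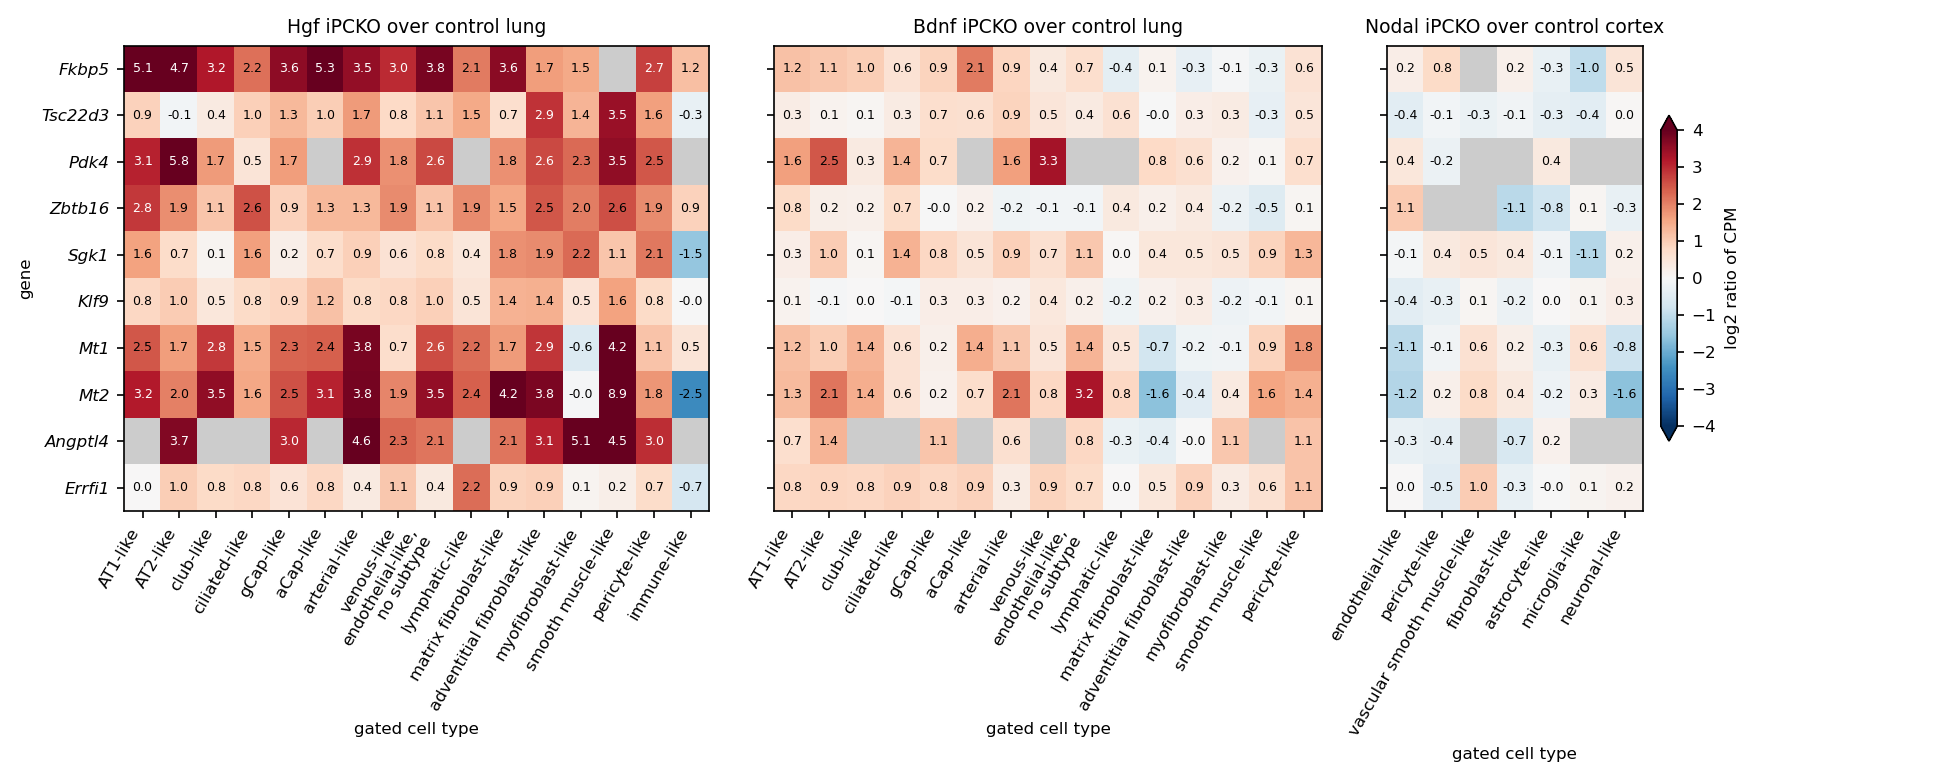
Log2 ratio of CPM, iPCKO over control, of the 10 genes (rows) in each gated cell type (columns) of the Hgf lungs, the Bdnf lungs and the Nodal cortex; grey marks combinations with under 20 UMIs over both libraries. Of the ratios shown, 100 of 150 were at or above 1 in the Hgf lungs (6.87% over all genes), 30 of 142 in the Bdnf lungs (3.61%) and 2 of 60 in the cortex (2.48%). At or below -1 were 2, 1 and 6 of them, against 7.95, 2.33 and 2.96% over all genes.

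In the Bdnf lungs the same genes were also higher on median, by less than in the Hgf lungs for 9 of them. For Errfi1 the order of the lungs depended on the processing: the median was 0.82 in the Bdnf lungs and 0.74 in the Hgf lungs, but 0.66 and 0.71 with free RNA subtracted, 0.73 and 0.82 at the higher UMI minimum and 0.83 and 0.85 with Leiden clusters. 30 of 142 ratios were at least 2-fold higher in the Bdnf iPCKO library and 1 was lower, with a median log2 ratio of 0.52. Against the Hgf control in place of its own control, 79 of 140 ratios were higher, where all genes gave 11.0% higher and 6.81% lower of 179395 ratios, and the median moved from 0.58 to 2.14 for Fkbp5 and from 0.17 to 2.13 for Zbtb16. Against its own control, all genes gave 3.61% higher and 2.33% lower of 193325 ratios, with a median of 0.00. Errfi1 was above 0 in all 15 types, with a median of 0.82. It stood at 351 CPM in the Bdnf control and 618 in the Bdnf iPCKO library in AT1-like cells (0.82, 0.76 to 0.88). Sgk1 was above 0 in all 15 types as well, with a median of 0.65, and stood at 301 and 534 CPM in gCap-like cells (0.83, 0.76 to 0.89). In arterial-like cells Sgk1 stood at 298 and 572 CPM (0.94, 0.80 to 1.08).

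Fkbp5 in the Bdnf lungs differed between cell types. It was higher past 2-fold in 3 of 15 types: at 48.0 and 108 CPM in AT1-like cells (1.17, 1.02 to 1.32), at 11.6 and 24.7 in AT2-like cells and at 8.76 and 37.3 in aCap-like cells (2.09, 1.44 to 2.80). In adventitial fibroblast-like cells it stood at 159 and 125 CPM (-0.34, -0.47 to -0.22) and in myofibroblast-like cells at 136 and 131. The types past 2-fold were thus alveolar and capillary types, and the fibroblast types lay near or below 0, as did lymphatic-like (104 and 80.0 CPM) and smooth muscle-like cells (57.1 and 47.1), whose intervals spanned 0. In pericyte-like cells it stood at 118 and 176 CPM (0.58, 0.09 to 1.07).

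Tsc22d3, Zbtb16 and Klf9 had no ratio past 2-fold in the Bdnf lungs, with medians of 0.34, 0.17 and 0.14. Pdk4 was higher past 2-fold in 5 of 12 types, and stood at 1.84 CPM in the control and 10.2 in the iPCKO library in AT2-like cells (2.47, 2.16 to 2.80). Angptl4 was higher past 2-fold in 4 of 10 types. It stood at 66.8 and 149 CPM in pericyte-like cells (1.15, 0.55 to 1.78) and at 169 and 129 in matrix fibroblast-like cells (-0.39, -0.67 to -0.11). The metallothioneins were higher past 2-fold in 6 (Mt1) and 7 (Mt2) of 15 types. Mt2 stood at 30.5 and 135 CPM in AT2-like cells (2.15, 2.07 to 2.23), and Mt1 at 129.8 and 331 in club-like cells (1.35, 1.22 to 1.48). Mt2 in matrix fibroblast-like cells was the 1 ratio past 2-fold in the other direction, at 129.9 and 41.5 CPM (-1.65, -2.11 to -1.21).

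The control lungs also differed from each other in several of these genes. The ratio of the Hgf control to the Bdnf control was at least 2-fold lower for 48 of 141 values of the 10 genes and higher for 4, with a median of -0.52. Over all genes 8.21% of 182923 ratios were lower and 5.32% higher, with a median of -0.05. Zbtb16 was lower past 2-fold in all 16 types, with a median of -2.07, for example at 147 CPM in the Bdnf control and 21.7 in the Hgf control in AT1-like cells. Fkbp5 was lower past 2-fold in 15 of 16, with a median of -1.65. Angptl4 was lower in 5 of 7 types and Mt2 in 7 of 14. Klf9 and Sgk1 had medians of 0.03 and -0.11, with no type past 2-fold for Klf9 and 1, the immune-like cells, for Sgk1.

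Set against the Bdnf control in place of its own, the Hgf iPCKO library had 82 of 153 values at least 2-fold higher and 1 lower. All genes gave 9.15% higher and 13.5% lower of 186088 ratios in that comparison. Mt1 (median 2.30), Pdk4 (2.04), Angptl4 (1.69), Mt2 (1.59), Fkbp5 (1.29), Klf9 (1.04) and Sgk1 (1.02) had medians past 2-fold there. Zbtb16 had a median of -0.36, with 11 of 16 intervals below 0. The higher Zbtb16 of the Hgf iPCKO lung therefore holds against its own control and not against the control of the other pair. These comparisons share libraries with the ones above, and the pairs also differ in depth and in any batch of dissection or library preparation, which cannot be told apart from genotype here.

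Ordered over the 4 lungs, the Hgf control was the lowest library in 102 of 144 combinations of gene and cell type (70.8%, 27.0% of 178679 over all genes) and the Hgf iPCKO library the highest in 103 (71.5%, 27.5% over all genes). The full order of Hgf control, Bdnf control, Bdnf iPCKO and Hgf iPCKO was found in 58 (40.3%, 5.83% over all genes). The genes were chosen on ratios that enter this order, which was not among the planned counts, so its share is a description. Fkbp5 followed this order in 11 of 15 types. In gCap-like cells Fkbp5 stood at 16.1, 32.2, 59.8 and 191 CPM in this order, with no overlap of intervals. Klf9 had its highest level in the Hgf iPCKO library in 15 of 15 types, while the order of the other lungs varied. In gCap-like cells these were at 448 (Hgf control), 356 (Bdnf control) and 431 CPM (Bdnf iPCKO) against 818. Zbtb16 showed the reverse, with the Hgf control lowest in 15 of 15 types and the Hgf iPCKO library highest in only 2.

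**Figure D3:**
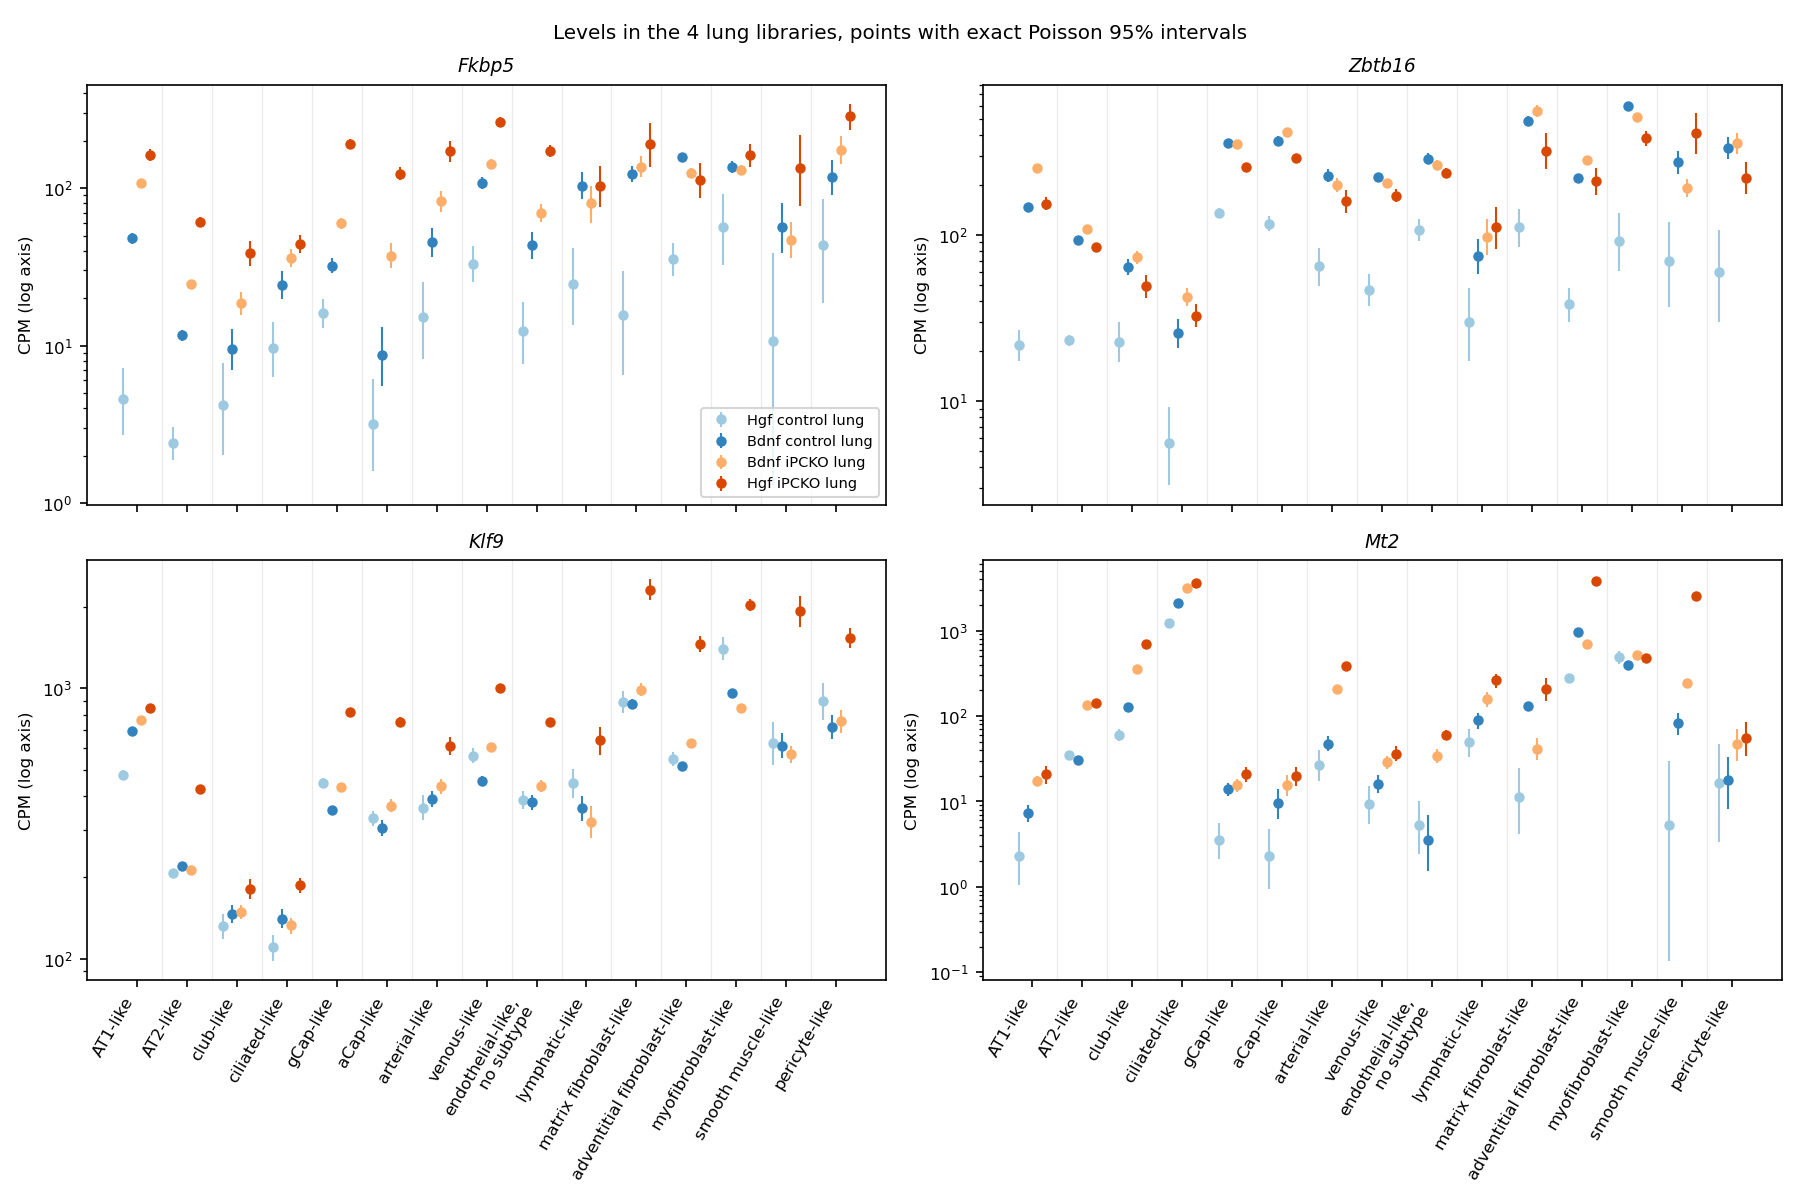
Level of Fkbp5, Zbtb16, Klf9 and Mt2 in the 4 lung libraries over 15 gated cell types; points are CPM on a log axis and bars are exact Poisson 95% intervals. Fkbp5 climbs from the Hgf control (pale blue) to the Hgf iPCKO library (dark orange) in most types, Zbtb16 is lowest in the Hgf control in all 15 types, and Klf9 is highest in the Hgf iPCKO library in all 15.

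The share of cells with at least 1 UMI was compared after each cell had been thinned to 700 UMIs, which left out no cell. Fkbp5 was then found in 0.209% (0.108 to 0.366) of AT2-like cells of the Hgf control, 0.859% (0.642 to 1.13) of the Bdnf control, 1.67% (1.38 to 2.00) of the Bdnf iPCKO and 4.01% (3.42 to 4.66) of the Hgf iPCKO library. None of these intervals overlapped. Before thinning the shares were 1.12, 8.56, 12.7 and 18.7%, at median depths of 4755, 8569, 5968 and 3617 UMIs. In gCap-like cells the thinned shares of Fkbp5 were 0.889, 2.10, 4.68 and 12.5% in the same order, and in AT1-like cells 0.109, 3.63, 6.30 and 11.1%. In aCap-like cells they were 0.104, 0.566, 3.14 and 8.05%. Detection of Fkbp5 thus differed in the number of cells and was not confined to a few: in gCap-like cells of the Hgf iPCKO library no cell held more than 7 of its UMIs.

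Angptl4 was found, after thinning, in 4.04% (1.11 to 10.0) of pericyte-like cells of the Hgf control and 34.9% (28.9 to 41.2) of the Hgf iPCKO library, and in 6.92% (3.21 to 12.7) and 11.2% (6.76 to 17.1) of the Bdnf control and Bdnf iPCKO libraries. The Hgf intervals do not overlap and the Bdnf intervals do. Before thinning these were 12.1, 59.3, 20.0 and 36.6%, at median depths of 1808, 1512, 3520.5 and 2863 UMIs. In ciliated-like cells, where Angptl4 was near 0 in CPM, 0 of 276 cells of the Hgf control had a UMI, which allows a share with a UMI of up to 1.33% and does not limit the share that expresses the gene, and 0.175% did in the Hgf iPCKO library after thinning, at median depths of 8468 and 6922. Mt1 was found in 9.70% of club-like cells of the Hgf control and 53.5% of the Hgf iPCKO library after thinning, and in 9.49 and 18.4% in the Bdnf control and Bdnf iPCKO libraries.

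**Figure D4:**
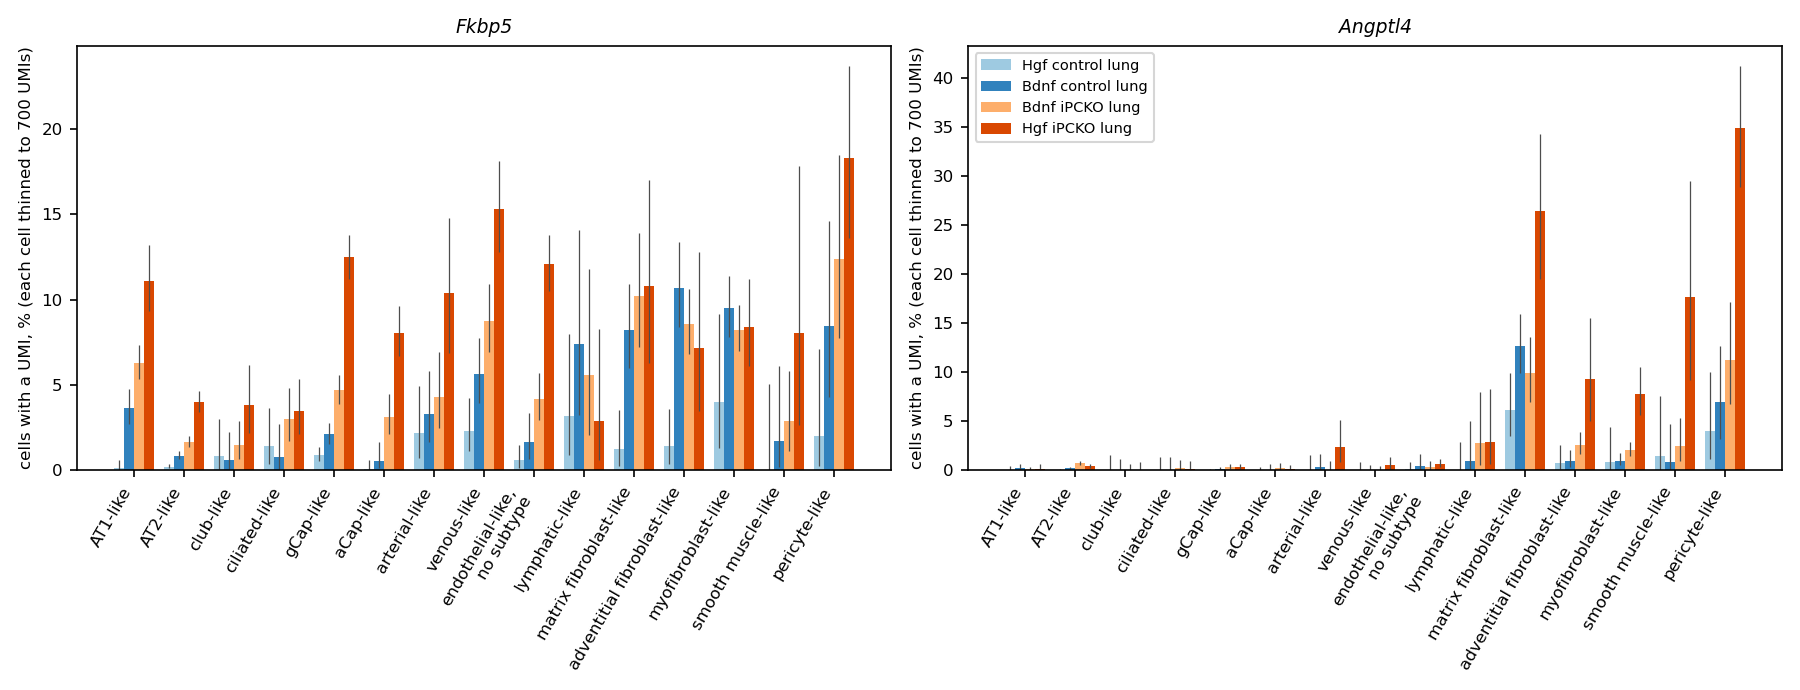
Share of cells with at least 1 UMI of Fkbp5 or Angptl4 in the 4 lung libraries, by gated cell type, after thinning each cell to 700 UMIs; lines are exact binomial 95% intervals. Fkbp5 was detected in all types and most often in the Hgf iPCKO library in most of them. Angptl4, whose CPM was highest in matrix fibroblast-like and pericyte-like cells of each lung library, was detected in 34.9% of pericyte-like cells of the Hgf iPCKO library.

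RNA outside cells moved with these results. In barcodes with 10 to 100 UMIs, which hold no cell, Fkbp5 stood at 24.1 CPM (19.8 to 29.0) in the Hgf control and 324 (309 to 339) in the Hgf iPCKO library. Mt1 stood at 114 and 475 CPM, Mt2 at 57.9 and 277 and Sgk1 at 98.9 and 214 there. In the Bdnf libraries Fkbp5 stood at 46.8 (39.8 to 54.9) and 97.4 (83.7 to 113), and Pdk4 at 12.7 and 26.4. The markers of other cell types bounded the free RNA in a sum at 5.15% in the Bdnf control, 7.19% in the Bdnf iPCKO, 5.07% in the Hgf control and 6.10% in the Hgf iPCKO library for the type with the most, and at 1.63% in cortex. At that bound, free RNA made up a median of at most 5.74% of a level in each lung library, but, among levels of at least 20 UMIs, over 50% of 2 in the Hgf control, 8 in the Hgf iPCKO, 10 in the Bdnf iPCKO and 1 in the Nodal control library. Mt1 and Mt2 in gCap-like and aCap-like cells were among them, as was Errfi1 in aCap-like cells of these 3 lung libraries and in gCap-like cells of the Bdnf iPCKO library, where the bound was 72.2 of 136 CPM. Some levels on fewer UMIs were also near the bound, for example Mt2 in AT1-like cells of the Hgf control at 2.29 CPM against a bound of 1.69. With the free RNA subtracted, 102 ratios of the Hgf lungs were past 2-fold upwards and 28 of the Bdnf lungs.

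In the Nodal cortex the 10 genes showed no common direction. 2 of 60 ratios were at least 2-fold higher in the Nodal iPCKO library and 6 lower, with a median log2 ratio of -0.05. With the mean over cells in place of the sum the counts were 1 and 3: Fkbp5 in microglia-like cells (-0.92), Zbtb16 in fibroblast-like cells (-0.30), Mt2 in neuronal-like cells (-0.31) and Errfi1 in vascular smooth muscle-like cells (0.94) were then within 2-fold. All genes gave 2.48% higher and 2.96% lower of 87850 ratios and a median of -0.03. Microglia-like cells, the type in which Fkbp5 was highest, had 117 CPM in the control and 57.0 in the iPCKO library (-1.03, -1.20 to -0.87), and their Sgk1 stood at 219 and 100 CPM (-1.13, -1.25 to -1.01). Tsc22d3 in the same cells stood at 193 and 143 (-0.43, -0.55 to -0.32), whereas their Mt1 was higher, at 150.2 and 228 (0.60, 0.48 to 0.72). In endothelial-like cells Mt1 stood at 50.3 and 23.9 CPM (-1.08, -1.27 to -0.88) and Mt2 at 18.9 and 8.42 (-1.16, -1.49 to -0.84), while Sgk1, at 503 and 479.7, was nearly level.

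The pericyte-like cells of the cortex, in which no UMI of Nodal was left in the iPCKO library, had no ratio past 2-fold. Their Errfi1 stood at 83.6 and 61.0 CPM (-0.45, -0.79 to -0.13) and their Sgk1 at 69.1 and 89.9 (0.38, 0.06 to 0.71). In the neighbouring vascular smooth muscle-like cells Errfi1 was higher, at 428 and 872 CPM (1.03, 0.81 to 1.25). The astrocyte-like cells, the main site of the metallothioneins, had Mt1 at 3044 and 2493 CPM (-0.29, -0.31 to -0.26) and Mt2 at 2484 and 2184 (-0.19, -0.22 to -0.16). Fkbp5 in barcodes without a cell stood at 41.0 and 24.8 CPM in the cortex libraries.

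Further genes of the pathways were taken from lists of 9 to 29 genes that were also drawn up with earlier results of these data known. In the Hgf lungs, where all genes gave 6.87% higher and 7.95% lower, 145 of 356 ratios of other glucocorticoid targets were higher past 2-fold and 9 lower (40.7 and 2.53%, median 0.65). Hif3a (median 3.33), Ddit4 (2.11) and Galnt15 (1.91) were the farthest. FOXO targets, which insulin represses and fasting releases, had 83 of 232 higher and 5 lower (35.8 and 2.16%), led by Klf15 (2.12), Bnip3 (2.07) and Trp53inp1 (1.90). Genes of PPAR signalling and fatty acid oxidation had 56 of 357 higher and 16 lower (15.7 and 4.48%). Lpl, the lipase that Angptl4 inhibits, had a median of 2.47, from -2.34 to 4.64. The receptors and steroid-handling enzymes had 2 of 108 higher and 14 lower, with 1.85% higher, and Nr3c1, which encodes the glucocorticoid receptor, had a median of -0.13 with no type past 2-fold.

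The metal-responsive list had 12 of 132 ratios higher and 8 lower in the Hgf lungs (9.09 and 6.06%, against 6.87 and 7.95% of all genes). It includes the factor Mtf1 itself, at a median of -0.69. Of its zinc transporters, Slc39a10 had a median of -1.19, Slc39a8 of 0.72 and Slc30a1 of 0.11. Whether the genes of this list share an inducer with the metallothioneins in these cells was not tested. Partners of Errfi1 and Sgk1 had 24 of 115 higher and 8 lower (20.9 and 6.96%). Scnn1a, a subunit of the sodium channel that SGK1 stimulates, had a median of 1.65 with 10 of 14 types past 2-fold. The channel subunits Scnn1b and Scnn1g were near level, with medians of -0.14 over 5 and 0.09 over 6 types. The hypoxia list had 38 of 156 higher and 21 lower (24.4 and 13.5%, median -0.06). Bnip3, which is also on the FOXO list, gave 13 of these higher ratios. Per1 likewise is both among the other glucocorticoid targets and among the clock genes, so the lists are not independent. Immediate-early genes, which respond to cell dissociation among other stimuli, had 15 of 263 higher and 32 lower, and heat shock genes 3 of 154 higher and 18 lower.

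Clock genes had the largest share of ratios higher past 2-fold of any list in both lung pairs. In the Hgf lungs 141 of 223 of their ratios were higher past 2-fold and 28 lower (63.2 and 12.6%, median 1.50), with Dbp at 4.31, Bhlhe41 at 3.83, Hlf at 2.86 and Per2 at 2.37, against Arntl at -1.49 and Npas2 at -1.96. In the Bdnf lungs 72 of 230 were higher and 9 lower (31.3 and 3.91%, median 0.61), with Dbp at 1.59, Per3 at 1.39 and Hlf at 1.30, against Arntl at -0.76 and Npas2 at -0.97. Opposite signs of Dbp and Arntl are known to mark different phases of the daily cycle. In the Nodal cortex 1 of 111 was higher and 0 lower. The time of day at which mice were taken is not given in the sources used here, and the part of the clock difference in the values of the 10 genes was not tested.

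In the Bdnf lungs 28 of 363 ratios of the other glucocorticoid targets were higher and 1 lower (7.71 and 0.275%), led by Hif3a (1.18), and 12 of 221 of the FOXO targets were higher and 1 lower. Lpl had a median of 0.71 and Nr3c1 of -0.09. Immediate-early genes had 42 of 254 higher and 0 lower (16.5%), with Atf3 at a median of 0.99 and Egr2 past 2-fold in 7 of 14 types. In the Hgf lungs the median of Atf3 was -0.88. Against 3.61% higher and 2.33% lower over all genes, metal-responsive genes had 3 of 151 higher and 1 lower, and PPAR genes 31 of 386 and 4. Hypoxia genes had 12 of 163 and 1, heat shock genes 1 of 150 and 8, and partners of Errfi1 and Sgk1 16 of 154 and 1. The whole list of receptors and steroid handling had 3 of 117 and 2. In the cortex, where all genes gave 2.48% higher and 2.96% lower, the other glucocorticoid targets had 3 of 149 higher and 5 lower (2.01 and 3.36%), FOXO targets 3 of 99 and 0 (3.03% higher), and the remaining lists between 0.901 and 6.72% higher and at most 6.67% lower.

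**Figure D5:**
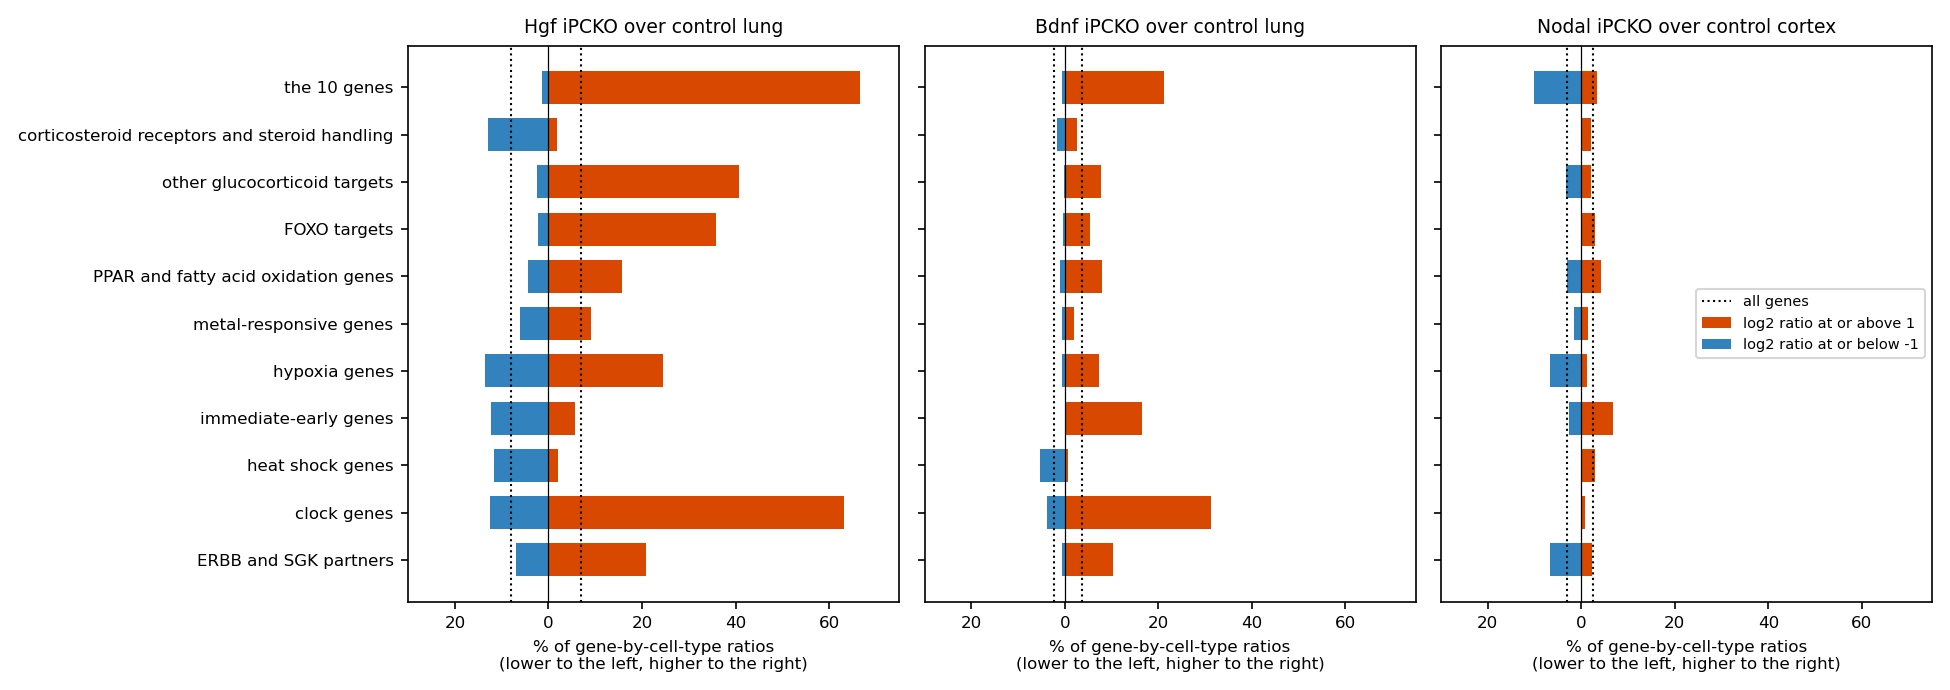
Share of gene-by-cell-type ratios at least 2-fold higher (orange, to the right) or lower (blue, to the left) in the iPCKO library, for the 10 genes and for each list, in the Hgf lungs, the Bdnf lungs and the Nodal cortex; dotted lines mark the shares over all genes. In the Hgf lungs the all-gene share on the higher side was 6.87%. Clock genes (63.2%), other glucocorticoid targets (40.7%), FOXO targets (35.8%) and hypoxia genes (24.4%) lie beyond it. Partners of Errfi1 and Sgk1 (20.9%) and PPAR genes (15.7%) do too. Metal-responsive genes (9.09%, 12 of 132 ratios, median log2 ratio 0.10) lie only slightly beyond it. On the lower side hypoxia genes (13.5%, median -0.06) and clock genes (12.6%) also lie beyond the all-gene share of 7.95%. So do the receptor, immediate-early and heat shock lists, whose shares on the higher side are below 6.87%. Every list lies below 10% in the cortex.

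Across the 64 sums of a lung library and a cell type with at least 50 cells, the Pearson correlation of the levels of 2 of the 10 genes had a median of 0.38 over the 45 pairs, from -0.46 to 0.91, and was positive in 36. These points share libraries, depth and cell types, and the genes were chosen on ratios between the same libraries, so the values are a description. Of all genes ranked, Mt2 was the most like Mt1 (0.91), and each was the other's nearest neighbour. Ctdsp2 (0.91) and Ginm1 (0.87) were nearest to Klf9, Garre1 (0.88) and Arrb1 (0.85) to Sgk1, and Mnt (0.75), Med13l (0.73) and Hlf (0.72) to Fkbp5. Ghr (0.79) was among the 3 nearest to Zbtb16, Sdc2 (0.79) to Pdk4, Ccng2 (0.77) to Tsc22d3, Spry1 (0.76) to Errfi1 and Ndrg2 (0.83) to Angptl4, which itself fell short of the 20 UMIs in enough sums to be ranked.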

How the data were processed

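Single-cell transcriptomes were measured with the BD Rhapsody whole-transcriptome assay in 6 libraries, 1 per group. According to their methods, the authors aligned reads and counted UMIs with STARsolo (STAR 2.7.10a in the submitters' processing notes) on GRCm39, kept every barcode without a cell filter and shared multi-mapped reads by expectation maximization. The deposited values are therefore estimated counts of UMIs per gene and barcode, without normalization; 8.50 to 9.95% of entries were fractional. Library totals were 33889545 to 186701379 UMIs.

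The 10 genes, the marker lists and the pathway lists were chosen with earlier results of these data known, and the limits of the gate after the sizes of the classes had been seen. Barcodes above the UMI minimum were scored one at a time on the markers; a class needed at least 3 markers with a UMI, a score of at least 0.25 and a lead over the next class. Estimated counts were summed per library and class and rounded where an exact interval needs whole numbers. Intervals are exact Poisson (levels), conditional exact (ratios) and Clopper-Pearson (shares), at 95%, for counting error only. No p-value was computed. Doublets and cells of high mitochondrial share were kept, and removed in an alternative. All 10 genes are named in every class of at least 50 cells. Of each list, up to 3 genes (a pair's 2 libraries together holding 30 UMIs or more) were named by the size of their median ratio over at least 3 classes. Genes of the receptor, sodium channel, clock and metal lists picked after their values were seen were named as well. The ratio procedure was tested on data simulated with counting error only, for 2 types of the Hgf lungs. The 95% intervals held the true ratio for 95.7% of genes in gCap-like and 96.5% in pericyte-like cells. Of unchanged genes, 1.48% and 6.81% passed 2-fold in either direction. 10 alternatives were planned and 2 were added after seeing the data. Analyses used Python 3.11.15 with numpy 2.4.6, scipy 1.17.1, pandas 2.3.3 and scanpy 1.11.5. Sex was not used, and the imaging of the study was not analysed here.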

Additional observations from a re-analysis of the deposited data

Results flagged for a closer look

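Mt2 in matrix fibroblast-like cells was far from level in both lung pairs and in opposite directions, with a log2 ratio of iPCKO to control of 4.20 (2.96 to 5.72) in the Hgf lungs and -1.65 (-2.11 to -1.21) in the Bdnf lungs. Against the Hgf control the Bdnf iPCKO library had a ratio of 1.88, so the opposite directions depend on the control used. Both ratios to the Hgf control, 4.20 and 1.88, rest on few UMIs of Mt2 in that control. The difference between the pairs was not tested, since each ratio rests on 1 library per group.

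Several of the 10 genes were also higher in barcodes of 10 to 100 UMIs, which hold no cell and enter no comparison of levels. In the Bdnf iPCKO library Fkbp5 stood at 97.4 CPM (control 46.8) and Pdk4 at 26.4 (12.7). In the Hgf iPCKO library Fkbp5 stood at 324 CPM (control 24.1), Mt1 at 475 (114), Mt2 at 277 (57.9), Sgk1 at 214 (98.9), Pdk4 at 46.4 (14.8) and Angptl4 at 13.6 (3.87).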

How the results depend on the processing

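No paired analysis was possible because each group has 1 library. Replicates could not be left out for the same reason. The count of ratios of the 10 genes past 2-fold upwards in the Hgf lungs ran from 82 to 104 over all alternatives, and no called ratio changed sign in any pair under the 11 alternatives other than the exchange of controls. Scaling by the median of ratios shifted all genes of a type by up to -0.29 on the log2 scale, in matrix fibroblast-like cells of the Hgf lungs, with 101 of 102 called ratios kept. The mean over cells kept 94 of 102 in the Hgf lungs, 26 of 31 in the Bdnf lungs and 4 of 8 in the cortex, and Leiden clusters kept 81 of 81, 22 of 28 and 7 of 7 of those they could compare. With the control lung of the other pair in place of a pair's own, chosen after seeing the data, 69 of 102 called ratios of the Hgf lungs and 22 of 31 of the Bdnf lungs were kept. 79 of 140 ratios were then higher in the Bdnf iPCKO library (11.0% of all genes), and 1 of 153 was lower in the Hgf iPCKO library (13.5% of all genes). Mt2 in matrix fibroblast-like cells of the Bdnf iPCKO library then turned to 1.88. In the Hgf iPCKO library the median of Zbtb16 turned to -0.36, with -0.14 in AT2-like, -0.35 in aCap-like, -0.07 in adventitial fibroblast-like, -0.52 in arterial-like, -0.39 in club-like, -0.29 in endothelial-like cells of no subtype, -0.60 in matrix fibroblast-like and in pericyte-like, -0.64 in myofibroblast-like and -0.37 in venous-like cells. Fkbp5 in adventitial fibroblast-like cells turned to -0.50 and Mt2 in immune-like cells to 3.50. Counts of lower ratios were small throughout. In the Bdnf lungs they were 2 under a stricter gate, 0 with Leiden clusters, 0 with the mean over cells and 2 with free RNA subtracted. In the Hgf lungs the count was 0 with Leiden clusters. The 2 lower ratios there, Sgk1 and Mt2 in immune-like cells, were not among those Leiden clusters could compare. In the cortex the higher count was 1 under a stricter gate, with Leiden clusters and with the mean over cells, and the lower count 3 with the mean over cells. The causes of the other changes were not tested, and the exchange of controls changes the pair along with the control. Pdk4 and Angptl4 levels of the Hgf control in AT1-like, AT2-like, aCap-like and gCap-like cells rest on 1 to 16 UMIs each, which limits their precision.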
